A study of Homo sapiens with 4 samples.

Results

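The regions described are 956 H3K27ac peaks at promoters that were called in *SNHG1*-depletion neuroblastoma cells, with no peak close by in control cells. They were chosen by the peak lists themselves. Each is a peak of the sgSNHG1 list on chromosomes 1 to 22 that lies within 1000 bp of a protein-coding start site (GENCODE release 44) and has no peak of the sgCtrl list within 1000 bp. They are called sgSNHG1-only promoter peaks, and they are 956 of the 50119 peaks of the sgSNHG1 list and of the 16247 promoter peaks it holds on these chromosomes. The cells were SK-N-BE(2)C, a human neuroblastoma line with amplified *MYCN*, and H3K27ac was measured by ChIP-seq with paired-end reads. The sgSNHG1 group (2 samples, genotype *SNHG1* knockout) carried Cas9 with guide RNAs against *SNHG1*, and the sgCtrl group (2 samples, genotype wildtype) a non-targeting guide RNA. The labels give 1 protocol for all 4 samples, with a pSurrogate reporter, puromycin, sorting and expansion of single clones, and the methods describe the reporter, sorting and expansion for the *SNHG1*-depletion clones and the control as a clone with the non-targeting guide. Each group thus stands for selected clones, and the labels and methods name neither the sgSNHG1 clone assayed nor an input library. The authors pooled the 2 samples of a group before peaks were called. The 956 peaks therefore have 1 value each, no difference could be tested against the spread between samples, and all intervals below are 95% intervals that cover counting error over peaks only.

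H3K27ac is the acetylation of lysine 27 on histone H3, placed by the acetyltransferases CBP and p300 and removed by histone deacetylases. It flanks the start sites of active genes and marks active enhancers. Many promoters of housekeeping genes lie in CpG islands, stretches rich in CG dinucleotides, while promoters of tissue-specific genes more often lack them. *SNHG1* is a long noncoding RNA gene that hosts small nucleolar RNAs, and its depletion was the perturbation that separates the groups. A peak in only 1 list passed the peak caller's threshold there and missed it in the other, which does not show that the mark was absent.

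The sequences upstream of 8 of these promoters are shown, taken from the top of the set and from its marker genes. All 8 lie above the set's median −log10 p of 11.2, so they do not span its range. *EFCAB7*, *ZNF540*, *ZNF492* and *NDUFS4* are among the highest peaks by fold enrichment, and *NECAP1* and *MSX1* among the strongest by p-value. *DBH* and *DDC* are the genes with a member from a list of 20 adrenergic markers. Each line gives the 200 bases before the RefSeq start of transcription (-200 to -1, GRCh38.p14, 5′ to 3′ on the strand of the gene). Capitals mark the letters of 8 promoter motifs searched on both strands, none of which contains another. They are TGACGTCA for CRE, the site of CREB and ATF factors, CACGTG for the E-box that MYC proteins bind, TGACTCA for AP-1, CCAAT for the trimeric factor NFY, CCGGAAG for ETS factors, GGGCGG for the GC box of Sp factors, TATAAA for the TATA box, and the palindromic consensus of NRF1, given by name alone, which stands in capitals in the *ZNF540* line. RefSeq promoters were found for 776 of the 957 genes at the peaks.
EFCAB7, chr1:63523325-63523524, plus strand: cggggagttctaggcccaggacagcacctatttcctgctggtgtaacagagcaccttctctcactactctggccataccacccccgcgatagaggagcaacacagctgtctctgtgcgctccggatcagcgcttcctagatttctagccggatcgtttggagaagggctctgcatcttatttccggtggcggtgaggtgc
ZNF540, chr19:37551174-37551373, plus strand: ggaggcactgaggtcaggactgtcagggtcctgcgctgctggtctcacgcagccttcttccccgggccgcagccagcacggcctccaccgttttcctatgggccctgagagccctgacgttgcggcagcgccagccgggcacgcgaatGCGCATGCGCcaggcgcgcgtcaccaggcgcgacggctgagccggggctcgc
ZNF492, chr19:22634124-22634323, plus strand: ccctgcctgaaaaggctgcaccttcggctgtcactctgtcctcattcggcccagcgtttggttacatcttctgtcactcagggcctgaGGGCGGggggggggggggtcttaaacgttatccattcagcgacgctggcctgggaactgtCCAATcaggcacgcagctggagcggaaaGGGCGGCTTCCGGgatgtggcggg
NDUFS4, chr5:53560439-53560638, plus strand: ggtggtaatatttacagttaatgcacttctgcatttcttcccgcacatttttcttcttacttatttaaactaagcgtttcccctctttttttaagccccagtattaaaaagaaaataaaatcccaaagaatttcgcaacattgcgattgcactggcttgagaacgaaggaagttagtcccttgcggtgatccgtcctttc
NECAP1, chr12:8082074-8082273, plus strand: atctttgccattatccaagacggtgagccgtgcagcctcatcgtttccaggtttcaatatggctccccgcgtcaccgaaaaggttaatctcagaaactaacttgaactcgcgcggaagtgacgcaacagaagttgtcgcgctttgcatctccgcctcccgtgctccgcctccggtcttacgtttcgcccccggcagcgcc
MSX1, chr4:4859465-4859664, plus strand: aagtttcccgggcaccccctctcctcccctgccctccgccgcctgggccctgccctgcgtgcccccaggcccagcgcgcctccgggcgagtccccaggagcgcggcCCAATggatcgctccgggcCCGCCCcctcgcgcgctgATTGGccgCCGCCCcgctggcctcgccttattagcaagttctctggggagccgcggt
DBH, chr9:133636163-133636362, plus strand: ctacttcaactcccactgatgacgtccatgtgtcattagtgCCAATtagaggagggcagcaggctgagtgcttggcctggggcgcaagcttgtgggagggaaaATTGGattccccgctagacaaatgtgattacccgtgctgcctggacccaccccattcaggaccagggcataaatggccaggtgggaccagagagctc
DDC, chr7:50561072-50561271, minus strand: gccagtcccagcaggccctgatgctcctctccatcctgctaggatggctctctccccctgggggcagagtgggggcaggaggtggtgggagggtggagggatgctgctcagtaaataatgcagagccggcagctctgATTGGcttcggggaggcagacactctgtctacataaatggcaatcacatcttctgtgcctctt
The *ZNF540* sequence holds the NRF1 letters at -52, and that of *ZNF492* holds 4 matches, a GC box at -112, NFY at -52, a GC box at -24 and ETS at -18. Upstream of *MSX1* there are 2 NFY and 2 GC box matches between -94 and -49. *DBH* holds NFY letters at -159 and -97, and *DDC* at -63. None of the 8 motifs matched in the *EFCAB7*, *NDUFS4* and *NECAP1* sequences. The *MSX1* and *ZNF540* stretches are the richest in GC, at 75.5% and 71.5% with 22 CG dinucleotides each, and that of *NDUFS4* the poorest, at 38.5% with 7. *DBH* and *DDC* have 4 and 2 CG dinucleotides. RefSeq and GENCODE starts coincide for *EFCAB7*, *ZNF492* and *MSX1* and are at most 36 bp apart for the others. The H3K27ac summits lie downstream of the RefSeq start in 7 of the 8, by 138 bp at *NDUFS4* to 335 bp at *ZNF492*, and 162 bp upstream of it at *EFCAB7*, within an intron of the divergent gene *ITGB3BP*.

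Promoter peaks were less often without an sgCtrl peak nearby than peaks elsewhere in the genome. Of the sgSNHG1 promoter peaks, 956 of 16247 (5.88%, interval 5.53% to 6.26%) had no sgCtrl peak within 1000 bp. Of the other sgSNHG1 peaks, 5802 of 33165 (17.5%) had none. In the opposite direction, 1711 of 16692 sgCtrl promoter peaks (10.3%) had no sgSNHG1 peak within 1000 bp. These shares follow from the rule and from the lengths of the lists, since the sgCtrl list holds 63699 peaks. With the sgCtrl list kept to its 50119 strongest peaks, so that both lists were of equal size, 1456 sgSNHG1 promoter peaks (8.96%) had none. The other 15291 sgSNHG1 promoter peaks are called shared, and the 1711 of the other list sgCtrl-only promoter peaks. At the limits of the rule, the members nearest to an sgCtrl peak were those at *TRAPPC3* (1001 bp), *APBB1* (1004 bp) and *RASGRP2* (1004 bp), with fold enrichments of 2.38, 3.63 and 2.58. Peaks at *WBP4* (995 bp), *PROSER3* (992 bp) and *STK40* (991 bp) fell just outside it, with 4.63, 3.89 and 3.04. The members farthest from their start site were those at *BBS4* (999 bp), *GRWD1* (997 bp) and *ZSCAN16* (996 bp), and peaks at *SLC4A3* (1001 bp), *FNDC7* (1010 bp) and *D2HGDH* (1011 bp) missed it.

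The sgSNHG1-only promoter peaks were low and short. Fold enrichment is the height of the summit over the local background in the pooled reads of a group. Its median was 3.89 in the sgSNHG1-only promoter peaks (interval 3.83 to 3.96, range 1.84 to 9.76), 5.42 in the shared ones (5.34 to 5.49) and 3.33 in the sgCtrl-only ones (3.26 to 3.38). The median −log10 p was 11.2, against 30.8 in the shared peaks and 11.1 in the sgCtrl-only ones. Of the 956, 320 lay between the threshold of 6 and 10, 521 between 10 and 20, and 115 above 20. Their median length was 282 bp (278 to 289), compared with 571 bp and 309 bp. The upper quartile of the members in fold enrichment, 4.63, lay below the shared median.

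The number of fragments over each summit was recovered from the fold enrichment and the p-value. The median was 35 fragments (33 to 36) on a local background of 7.17 in the sgSNHG1-only promoter peaks. Shared promoter peaks had 79 on 13.3, and sgCtrl-only peaks 42 on 11.6. In 28.2% of the sgSNHG1-only promoter peaks (25.5% to 31.2%) the background stood at the lowest value of the list, 4.66 fragments, where 18 fragments suffice for a peak. The same held for 5.78% of the shared peaks and, at the sgCtrl minimum of 4.89, where 19 fragments suffice, for 18.2% of the sgCtrl-only ones. Depth per sample is unknown, and its part in the set was not tested.

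**Figure D1:**
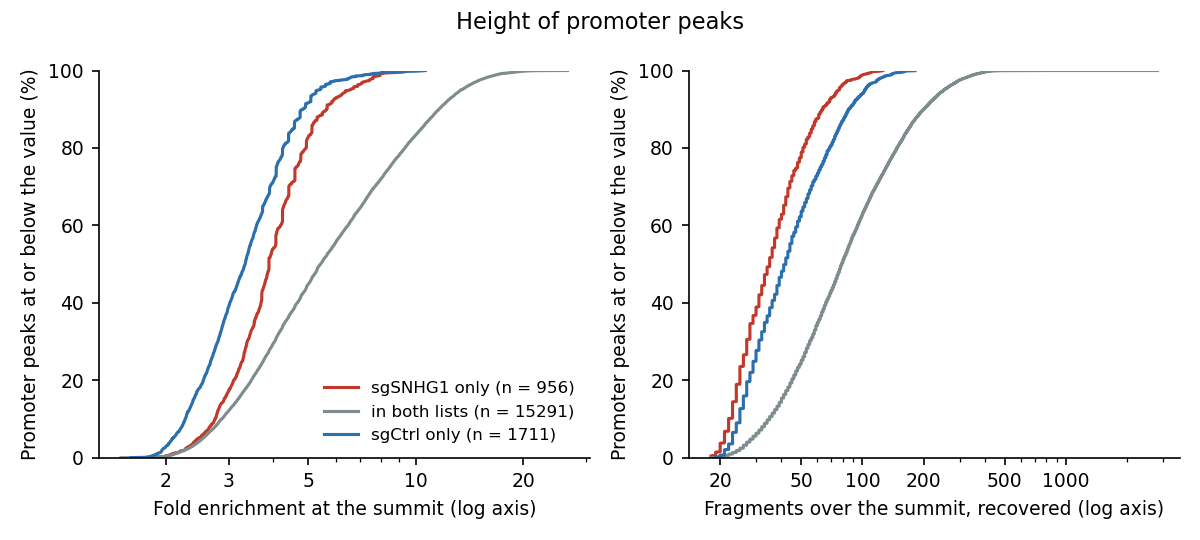
Share of promoter peaks (%) at or below each fold enrichment (left) and each recovered number of fragments at the summit (right), both on log axes, for the sgSNHG1-only (n = 956), shared (n = 15291) and sgCtrl-only (n = 1711) promoter peaks. The sgSNHG1-only curve lies left of the shared one on both axes, with medians of 3.89 against 5.42 in fold enrichment and 35 against 79 in fragments. It lies right of the sgCtrl-only curve in fold enrichment and left of it in fragments.

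At the top of the set stood promoters of unlike genes. The highest fold enrichment was 9.76, at *EFCAB7* (chr1:63523246-63524053, 64 fragments on a background of 5.66), where a peak of 808 bp also covers the start of *ITGB3BP*, a centromere protein gene. The nearest sgCtrl peak was 49534 bp away. *H3-7*, a histone H3 gene, followed with 9.41, then *ZNF540* with 9.39, *FAM172A* with 9.32, *ZNF492* with 9.19 and *NDUFS4*, a subunit of respiratory complex I, with 8.66. *FAM169A* had 8.23 and *ARL15*, a small GTPase of the ARF family, 8.13. *NPY4R* (a neuropeptide Y receptor), *GPD1L*, *LRRCC1*, *MTAP* (methylthioadenosine phosphorylase) and *ZNG1E* tied at 7.95, each with 44 fragments on the lowest background. Of the 13, 4 lie on chromosome 5 (*FAM172A*, *NDUFS4*, *FAM169A* and *ARL15*). In the whole set, 51 of 726 promoter peaks of chromosome 5 were members (7.02%, interval 5.38% to 9.12%), near the 5.88% of all promoter peaks. Stretches of 30 bases from the peaks at *NPY4R* and *ZNG1E* occur 2 and 3 times in the genome (median of 5 stretches), and those of the other 11 once.

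Ranked by −log10 p, *ZNF540* came top at 51.4 (chr19:37550464-37551820, 78 fragments on 7.42), and with 1357 bp its peak was also the longest. *NDUFB5*, another complex I subunit, had 47.4 with 92 fragments (chr3:179604852-179605319), and beside it a second member covered the divergent start of *MRPL47*, a mitochondrial ribosomal protein gene, with 24.8. *C16orf95* had 45.04, *EFCAB7* and *RALYL*, an RNA-binding protein gene, 44.4 each, and *NECAP1*, a clathrin adaptor partner, 43.0. *MSX1*, a homeobox factor of neural crest and craniofacial development, reached 42.8 with 75 fragments on 8.95 (chr4:4859699-4860496), at 68929 bp from the nearest sgCtrl peak. *H3-7* had 39.8 and *FAM172A* 37.8. *FEV*, an ETS factor of serotonergic neurons, had 37.1 with 109 fragments on a background of 23.7, and an sgCtrl peak lay at 2442 bp from it. After *ZNF540*, the longest members were those at *HTD2* (1226 bp), *EGFLAM* (1101 bp), *MB21D2* (1043 bp) and *HMGN3* (1032 bp).

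Most sgSNHG1-only promoter peaks lay more than 10 kb from any control peak, and the rule had removed all peaks within 1000 bp of one. The median distance to the nearest sgCtrl peak was 12336 bp (10687 to 14961, up to 904848 bp at *TGFBR2*). For sgSNHG1 peaks away from start sites with no sgCtrl peak within 1000 bp it was 10154.5 bp (9648 to 10604). From the sgCtrl-only promoter peaks to the nearest sgSNHG1 peak it was 9542 bp (8649 to 10333). Of the 956, 224 (23.4%) had a sgCtrl peak at 1 to 3 kb, 215 at 3 to 10 kb, 396 (41.4%) at 10 to 100 kb and 121 (12.7%, interval 10.7% to 14.9%) beyond 100 kb. Among the sgCtrl-only promoter peaks 7.77% (6.59% to 9.14%) lay beyond 100 kb of an sgSNHG1 peak. Peaks close to a control peak were lower and lay in other sequence than remote ones. The median fold enrichment was 3.08 at 1 to 3 kb and 4.60 beyond 100 kb, and the share in a CpG-rich window (defined below) 33.0% and 79.3%. GC content of the surrounding 100 kb was 50.2% and 39.5%. Of all 956 members, near and remote, 495 (51.8%) had no other peak of either list within 10 kb.

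The set held start sites of 957 protein-coding genes, of the 12351 genes with any sgSNHG1 promoter peak. For 288 of them a shared peak also lay within 1000 bp of a start site of the gene, either the same start site or another. The other 669 had no shared promoter peak. No sgCtrl peak lay anywhere in the gene or within 10 kb of it for 255 of the 957 (26.6%, interval 23.9% to 29.5%), and within 50 kb for 112 (11.7%). Genes at sgCtrl-only promoter peaks gave 23.3% (21.3% to 25.5%) for the same measure in the other direction, and 60 genes had members of both sets. A start site of the Ensembl canonical transcript lay within 1000 bp of 73.8% of the members (71.0% to 76.5%), 84.3% of the shared peaks and 48.1% of the sgCtrl-only ones (45.7% to 50.5%). Over all strengths the members lay between shared and sgCtrl-only peaks on this measure, with intervals that do not meet. The order of members and shared peaks changed with strength. Between 6 and 10 in −log10 p their shares were 68.1% (62.8% to 72.99%) and 59.5% (56.7% to 62.3%). Between 10 and 20 they were 75.05% (71.2% to 78.6%) and 72.7% (71.4% to 74.1%), with intervals that overlap. Above 20, where strength was not matched, they were 84.3% (76.6% to 89.9%) and 91.96% (91.4% to 92.5%). At all strengths together, a pair of genes on opposite strands shared 7.85% of the members (6.30% to 9.72%). For shared and sgCtrl-only peaks this was 12.5% and 2.10%. A long noncoding RNA started within 1 kb of 16.7%, 21.7% and 8.01%, in the same order.

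Within promoters, the summit of the members lay where it lies in other H3K27ac peaks. The median position was 149 bp downstream of the start (139 to 166), compared with 164 bp in the shared and 120 bp in the sgCtrl-only promoter peaks. The summit was downstream of the start in 68.7%, 70.1% and 63.9%. By annotation, 354 of the 956 summits (37.0%) lay in an exon of a protein-coding transcript, 497 (52.0%) in an intron and 105 (11.0%) outside protein-coding genes. The start site itself lay under 23.2% of the members, compared with 43.3% of the shared peaks and 32.1% of the sgCtrl-only ones.

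Sequence is a measure that the rule did not use. GC content over 500 bp around the summit had a median of 61.6% in the members (61.0% to 62.6%), 67.6% in the shared peaks and 64.0% in the sgCtrl-only ones. The ratio of observed to expected CG dinucleotides was 0.667, 0.769 and 0.428. A window was called CpG-rich with at least 55% GC and a ratio of at least 0.6. That held for 475 of the 956 members (49.7%, interval 46.5% to 52.9%), 72.2% of the shared peaks (71.5% to 72.9%) and 34.3% of the sgCtrl-only ones (32.1% to 36.6%). Strength changes the reading, because strong shared peaks are mostly CpG-rich. Between 6 and 10 in −log10 p, 49.7% of the members (44.2% to 55.1%) and 39.7% of the shared peaks (36.9% to 42.5%) were CpG-rich. In this band alone members were CpG-rich more often than shared peaks, by intervals that do not meet. Between 10 and 20, the band of 521 of the 956 members, the shares were 47.6% (43.3% to 51.9%) and 52.1% (50.6% to 53.6%), with intervals that overlap. Above 20 the shares were 59.1% (50.0% to 67.7%) and 84.2%, but that band has no upper end, and the median −log10 p in it was 23.3 in the members and 53.2 in the shared peaks, so strength was not matched there. Sequence was not tested as a cause of the difference between the lists.

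The RefSeq promoters at the members held fewer GC boxes than those at shared peaks. RefSeq promoters of 300 bases (250 before the start, 50 after) were searched for the same letters as above, 905 of them with a start within 1000 bp of a member, 13985 at shared and 914 at sgCtrl-only peaks. A GC box was found in 62.5% at the members (59.3% to 65.6%), 73.5% at the shared peaks and 60.7% at the sgCtrl-only ones, and in 45.04% of all 33725 RefSeq promoters on these chromosomes. ETS letters were in 16.0% (13.8% to 18.6%), 18.5% and 5.91% (4.56% to 7.63%), and in 10.3% of all promoters. Members and shared peaks were alike in the sense that both lay above the sgCtrl-only share, and their own intervals for ETS overlap. NFY letters gave 34.5%, 32.9% and 27.6%, the E-box 7.51%, 10.2% and 6.89%, and TATA 5.97%, 4.66% and 6.78%, against 11.6% for TATA in all promoters. CRE letters were in 1.99% of the promoters at members and in 3.25% at shared peaks, NRF1 in 2.10% and 2.32%, and AP-1 in 2.32% and 2.49%. In the 300 bp around the H3K27ac summit, which lies mostly downstream, NFY letters stood in 17.7% of the members (15.4% to 20.2%) and 12.7% of the shared peaks (12.2% to 13.2%), and TATA letters in 3.35% (2.38% to 4.68%) and 1.29%. In the 2 lower bands of −log10 p the intervals overlapped. Between 6 and 10 in −log10 p, NFY letters stood in 18.1% of the members (14.3% to 22.7%) and 16.4% of the shared peaks (14.4% to 18.6%), and between 10 and 20 in 16.5% (13.6% to 19.9%) and 15.3% (14.3% to 16.5%). TATA letters gave 3.44% (1.93% to 6.05%) and 1.30% (0.789% to 2.13%) in the first band and 2.88% (1.75% to 4.696%) and 1.94% (1.56% to 2.40%) in the other. Above 20, where strength was not matched, the intervals did not meet. NFY letters stood there in 21.7% of the members (15.2% to 30.1%) and 11.1% of the shared peaks (10.5% to 11.8%). TATA letters stood in 5.22% (2.41% to 10.9%) and 1.02% (0.841% to 1.24%). The shares in RefSeq promoters were not split by the strength of the peak. These letters are matches and not binding sites.

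Of the adrenergic markers listed, the set holds 2 enzymes of catecholamine synthesis. Of 20 adrenergic markers, 17 had an sgSNHG1 promoter peak and 15 an sgCtrl one, and the difference is *DBH* and *DDC*, which are both members. That is 2 of 17 (11.8%, interval 3.29% to 34.3%). Over all genes with an sgSNHG1 promoter peak, 957 of 12351 (7.75%, interval 7.29% to 8.23%) had a member, and each list below is to be read beside that share. *DBH*, dopamine beta-hydroxylase, had a peak of 228 bp with a fold enrichment of 3.07 and 60 fragments on a background of 18.9 (chr9:133636438-133636665), in exon sequence 219 bp downstream of the RefSeq start. *DDC*, aromatic L-amino acid decarboxylase, had 3.05 with 51 fragments on 16.0 (chr7:50560612-50560946), at an alternative start and not the canonical one. Both peaks are below the set's median height, and sgCtrl peaks lay only 1826 bp and 1191 bp away. *TH*, *CHGA*, *GATA3*, *HAND2* and *ISL1* held promoter peaks in both lists. Endothelial and haematopoietic markers had a promoter peak in neither list (0 of 4 each), Schwann cell markers in both (2 of 4), and of 5 fibroblast markers *COL1A1* and *COL1A2* had one in sgCtrl only.

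Of 23 mesenchymal genes with an sgSNHG1 promoter peak, 4 (17.4%, interval 6.98% to 37.1%) had a member. *SIX4*, a homeobox factor, had a fold enrichment of 4.77 and 26 fragments, and *RUNX2*, the runt factor of bone development, 4.42 and 24, both on the lowest background. *SOX9*, a neural crest and cartilage factor, had 3.33 with 43 fragments on 12.2, at 1870 bp from an sgCtrl peak. The peak at *CD44*, a cell surface receptor for hyaluronan, had 4.97 at a start that is not canonical, and its 30-base stretches occur a median of 1536 times in the genome. The interval of the mesenchymal share includes that of all genes.

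Synapse genes gave 4 of 21 genes (interval 7.67% to 40.0%). *DLG2*, a postsynaptic scaffold protein, had 5.83 where its start faces that of *TMEM126B*, *CACNA1A*, a calcium channel subunit, 5.06 and *DLG4*, which encodes PSD-95, 4.11. For the neuronal differentiation list the only gene of 20 was *ROBO2*, an axon guidance receptor, with 4.24. Matrix and adhesion genes gave 3 of 23, *TIMP3* (an inhibitor of metalloproteinases, 5.61, 269290 bp from an sgCtrl peak), *ITGA6* (4.60) and *LAMA4* (4.60). In the signalling list 2 of 31 had a member, the TGF-beta receptor *TGFBR2* with 4.60 and its effector *SMAD3* with 2.74. None of these lists stood apart from the share of all genes by its interval.

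Stress and repair genes entered singly. *HSPA1A*, a heat shock protein, had 4.60 with 64 fragments, *DNAJB1*, its cochaperone, 3.72 and *TRIB3* 3.23, which makes 3 of 23 genes of the immediate early and stress list. The oxidative stress list had *HMOX1*, haem oxygenase, at 3.49 and *NQO1* at 2.77, 2 of 22. DNA repair gave 2 of 29, *FANCI*, of the Fanconi anaemia pathway, at 5.56 and *ERCC1*, of nucleotide excision repair, with 3 members from 3.09 to 5.18. Of 28 p53 and apoptosis genes only *TNFRSF10B*, a TRAIL receptor, had a member (3.71), and of 28 cell cycle genes only *CDKN2D*, a CDK4 inhibitor (2.58). Interferon genes gave *IRF9* at 2.81 and *IRF3*, whose start lies near the *BCL2L12* peak, at 3.04. *HDAC7* had 2.83 and *HDAC11* 2 members, 3.36 and 3.55, among 31 genes for histone acetylation and its readers. Most of these values lie below the set's median of 3.89.

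Among the families counted by gene symbol, zinc finger genes had the most members. C2H2 zinc finger proteins are DNA-binding repressors in large part, and many lie in clusters on chromosome 19. Of 415 such genes with an sgSNHG1 promoter peak (symbols ZNF, ZFP, ZSCAN or ZKSCAN), 48 had a member (11.6%, interval 8.84% to 15.0%), above the 7.75% of all genes. In the other direction, 25 of 388 (6.44%, interval 4.40% to 9.34%) had an sgCtrl-only peak, below the 12.4% of all genes (1553 of 12556). The family share went with the chromosome. On chromosome 19, 30 of 178 zinc finger genes (16.9%, 12.1% to 23.04%) and 90 of 644 other genes (13.98%, 11.5% to 16.9%) had a member, and on other chromosomes 18 of 237 zinc finger genes (7.59%, 4.86% to 11.7%). The same split for sgCtrl-only peaks was 12 of 163 (7.36%, 4.26% to 12.4%) for zinc finger genes and 152 of 671 (22.7%, 19.6% to 25.97%) for other genes of chromosome 19. Zinc finger and other genes there thus differed in the sgCtrl-only share, by intervals that do not meet, and not in the sgSNHG1-only share.

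The 51 members at zinc finger genes had a median fold enrichment of 4.36, from 2.59 to 9.39, against 6.88 for the 486 shared peaks of the family. Their median distance to an sgCtrl peak was 27864 bp, 62.7% were CpG-rich, 28 stood on the lowest background, and for 7 the median stretch of 30 bases occurs more than once in the genome. The run with the most members was a zinc finger cluster on chromosome 19, between summits at 36489222 and 37318055, where 10 of 13 promoter peaks were members. These lay at *ZNF566* (4.36), *ZNF461* (4.60 and 4.42), *ZNF567* (4.95 and 5.13), *ZNF790* (3.89), *ZNF829* (5.30), *ZNF420* (4.95) and *ZNF875* (3.78 and 4.29). They held between 21 and 29 fragments, and the peak at *ZNF829* and the second at *ZNF461* lie in sequence with 6220 and 261 copies. A further cluster on the same chromosome had 4 members of 5 promoter peaks, *ZNF208* (3.71), *ZNF676* (4.24), *ZNF98* (4.24) and *ZNF492* (9.19). On chromosome 3 from 44338239 to 44729751, 7 of 10 promoter peaks were members, *TCAIM* (5.83), *ZNF445* (6.01), *ZNF852* (7.07 and 4.92), *ZKSCAN7* (4.06), *ZNF502* (4.60) and *ZNF501* (4.60). Each of these stretches was drawn to begin and end at a member, which raises the share of members inside it. The genes of a stretch are neighbours, so they are not separate observations.

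Developmental transcription factors formed another group, chosen after the genes of the set were seen. Of 115 genes of the homeobox, SOX, FOX, T-box and related families with an sgSNHG1 promoter peak, 20 had a member (17.4%, interval 11.5% to 25.3%). The same families had an sgCtrl-only peak at 41 of 135 genes (30.4%, interval 23.2% to 38.6%), so they were frequent in both directions. *MSX1* was by far the strongest, with 75 fragments. *TFAP2A*, an AP-2 factor of neural crest, had a fold enrichment of 5.66 with 31 fragments, and *POU3F2*, a neuronal POU factor, 4.06 with 22. The proneural factors *NEUROG2* and *NEUROG1* had 4.41 and 3.72 with 25 and 22 fragments, at 122705 and 57031 bp from an sgCtrl peak, *OTX1* had 4.27 at 193849 bp and *NKX2-4* 3.89 at 92914 bp. *SOX2* (3.87), *FOXC1* (3.25) and *IRX2* (4.06) lay within 2009 bp of an sgCtrl peak. No *HOX* gene was in the set (0 of 11, which allows a share of up to 25.9%).

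Genes of cilia, chosen in the same way, gave 12 of 84 (14.3%, interval 8.37% to 23.3%), and 13 of 84 (15.5%) in the other direction. *DNAAF11*, an assembly factor of axonemal dynein, had 6.71, *DNAH5*, a dynein heavy chain, 4.94, *CFAP276* 4.48 and *IFT88*, of intraflagellar transport, 4.34. Mitochondrial genes were present at the background share, with 6 of 71 mitochondrial ribosomal proteins (8.45%) and 3 of 42 complex I subunits (7.14%). Of 87 cytosolic ribosomal protein genes 1 had a member (*RPL26*; 1.15%, interval 0.203% to 6.23%), and of 210 solute carrier genes 11 (5.24%).

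Chromosome 19 held the largest share of members, 110 of 1099 promoter peaks (10.0%, interval 8.37% to 11.9%), followed by chromosome 3 with 74 of 897 (8.25%) and chromosome 6 with 65 of 800 (8.13%). The lowest shares were 2.79% on chromosome 21 (5 of 179), 3.41% on chromosome 16 and 3.98% on chromosome 4. Chromosome 19 also led among the sgCtrl-only peaks (15.8%), while chromosome 4 had 14.2% there and chromosome 3 7.03%. Members and sgCtrl-only peaks differed in the kind of region. In 5 equal bins of the GC content of the surrounding 100 kb, from low to high, members made up 7.51%, 5.23%, 5.97%, 5.60% and 5.11% of the sgSNHG1 promoter peaks, and sgCtrl-only peaks 6.20%, 5.86%, 9.44%, 13.1% and 15.4% of the sgCtrl ones. The fall in the members came from windows that were not CpG-rich, from 17.2% in the lowest bin to 6.66% in the highest, and in CpG-rich windows the share stayed between 3.70% and 4.80%. Regional GC content moved with both sets, and also with the fragments at promoter peaks that overlap between the lists. There the median log2 ratio of sgSNHG1 to sgCtrl fragments was 0.153, 0.123, 0.068, -0.045 and -0.184 over the same bins. The part of regional GC content in the sets was not tested. For shared promoter peaks within 5 Mb of a member, the log2 ratio of sgSNHG1 to sgCtrl fold enrichment was taken relative to all shared promoter peaks. Its median was 0.01 (5th to 95th percentile -0.10 to 0.12). Fold enrichment is a ratio to the local background, so a regional difference in read coverage can cancel in it and would not show here.

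Within 1 Mb windows there were 108 runs of 3 or more members, which held 418 of the 956. Many of these stretches are dense in promoters, such as one on chromosome 19 with 7 members among 69 promoter peaks. No such count was made for other peaks, so the number of runs shows no grouping by itself. Each run also begins and ends at a member, which raises the share of members inside it. On chromosome 5, all 5 promoter peaks between summits at 64768525 and 65624195 were members, at the divergent pairs *SREK1IP1* and *CWC27* (6.24 and 3.92) and *CENPK* and *PPWD1* (5.90 and 6.33), and at *TRIM23* (3.50). *CENPK* encodes a centromere protein and *CWC27* and *PPWD1* cyclophilins of the spliceosome. Runs of peaks on chromosome 3 fell within single genes as well. *VGLL4*, a TEAD cofactor, had 4 members at its alternative starts (2.66, 4.08, 3.69 and 4.07), and *IQSEC1*, an exchange factor for ARF6, had 4 (3.86, 2.97, 3.55 and 3.92). *ADA2*, *RDH5* and *ERCC1* had 3 each, and in all 88 genes had 2 or more members within 1000 bp of a start site.

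Repeated sequence and weak calls touch part of the set. For 78 of the 956 members (8.16%, interval 6.59% to 10.1%) the median of 5 stretches of 30 bases occurs more than once in the genome, compared with 4.09% of the shared and 5.49% of the sgCtrl-only promoter peaks. Without them 878 members remained, with a median fold enrichment of 3.89 and 52.4% in CpG-rich windows. With a −log10 p of at least 10 asked of the sgSNHG1 peaks, and the sgCtrl list kept whole, there were 636 members. They made up 4.31% of the sgSNHG1 promoter peaks of that strength. If any overlap with an sgCtrl peak was required to exclude a peak, in place of the 1000 bp, 2162 promoter peaks qualified (13.3%), with a median distance of 731 bp to the nearest sgCtrl peak.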

How the data were processed

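H3K27ac ChIP-seq was done on 4 samples, 2 per group, grouped by the genotype in the labels. After adaptor trimming (cutadapt) and BWA alignment to GRCh38, the authors merged both replicates within each group, and MACS2 peaks were called on the merged reads in paired-end mode (p-value threshold 1e-06, duplicates kept). Tool versions, input libraries and depth per sample are not given in the sources used here. The deposited lists give, per peak, a fold enrichment at the summit (a ratio to the local background), a −log10 p-value and the summit position. Their display score and q-value columns (4 in all) were not used.

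Start sites came from GENCODE release 44, and sequence from the hg38 genome, on which 1298 of 1298 RefSeq promoters at the peaks were found letter by letter. Distances were taken between peak edges. GC content was counted over 500 bp at the summit, or over 100 kb for the region. Copies of a sequence were counted for 5 stretches of 30 bases per peak. Fragments at a summit were solved from the fold enrichment, read as (fragments + 1)/(background + 1), and the Poisson p-value. They came out whole within 0.001 in 99.7% of peaks of both lists and in all 956 members. Shares carry Wilson intervals and medians order-statistic intervals, all limited to the counting of peaks, with no term for variation between cultures. No test between groups was made, and the test across genes planned for values per replicate was not run, because each group has 1 list.

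The members and the gene lists were chosen with earlier results of these data known, so their shares support nothing beyond a description. Genes were named by the highest fold enrichment, the lowest p-value, the greatest length, runs of 3 or more within 1 Mb, several members at a gene, nearness to the limits of the rule, and membership of the gene lists. The homeobox and cilia families, the RefSeq promoter windows and the leaving out of repeated sequence were chosen after seeing the data, and chromosomes stand in for chromosome arms. Chromosomes X and Y lie outside the rule. Distances, fragment recovery and the peak rule were tested on simulated data. Alternatives changed the p-value threshold, both distances, the start sites, the list sizes, the CpG and GC windows and the gene flank. Python 3.11.15, numpy 2.4.6, pandas 2.3.3, scipy 1.17.1, pysam 0.24.0, bedtools 2.31.1, samtools 1.23.1 and matplotlib 3.10.9 were used.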

Additional observations from a re-analysis of the deposited data

Results flagged for a closer look

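Promoter peaks on chromosome X lie outside the rule and were flagged because their share without a counterpart stood above that of the other chromosomes. Of 406 sgSNHG1 promoter peaks there, 64 (15.8%, interval 12.5% to 19.6%) had no sgCtrl peak within 1000 bp, compared with 5.88% on chromosomes 1 to 22. In the opposite direction, 23 of 347 sgCtrl promoter peaks on chromosome X (6.63%) had no sgSNHG1 peak within 1000 bp, compared with 10.3% on the autosomes. Each group has 1 pooled list, so the difference was not tested against the spread between samples.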

How the results depend on the processing

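Of 68 values obtained by changing 1 choice at a time (8 results, 12 settings), 20 stayed within the counting interval of the value reported, 5 counts of members (706 to 1267) stayed within 1.5 times of 956, and 43 moved. With a −log10 p of at least 10 asked of the sgSNHG1 peaks, and the sgCtrl list kept whole, there were 636 members (4.31% of the promoter peaks of that strength). Their median fold enrichment was 4.36, length 301 bp and GC content 60.6%. Counting any promoter peak without an overlapping sgCtrl peak gave 2162 (13.3%), with 3.599, 277 bp, 59.8% GC, 44.7% CpG-rich, 11.0% of genes free of sgCtrl peaks within 10 kb and a median distance of 731 bp to the nearest one. With a distance of 3000 bp to the sgCtrl peak the share was 4.51%, with 4.09, 54.8% CpG-rich, 35.3% of genes free and 21783 bp. Start sites within 500 bp gave 5.49%, 4.00, 54.2% CpG-rich and 15472 bp, and start sites within 3000 bp 6.70%, 3.72, 275 bp of length, 60.6% GC, 41.1% CpG-rich, 21.5% of genes free and 8844 bp. With canonical start sites alone the share was 5.19%, with 4.06, 56.9% CpG-rich, 32.6% of genes free and 17130 bp. Lists of equal size gave 1456 members (8.96%), with a length of 294.5 bp, 63.0% GC and 29.6% of genes free. GC content over the whole peak was 64.0%, the CpG-rich share from 50% GC was 55.5%, and the share of genes free of sgCtrl peaks was 43.9% over the gene body and 11.7% with 50 kb. These settings change which peaks or windows are counted. By the same criteria no value moved when members in repeated sequence were left out, a setting added after seeing the data. No paired analysis was possible because each list merges its group's replicates, and for that reason no replicate could be left out. Depth per sample is unknown, so what it limits was not measured, and 320 members lay near the threshold, between 6 and 10 in −log10 p.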
